A study of Mus musculus with 12 samples.

Results

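The genes described here encode the proteins of the mitochondrial ribosome, in mouse hearts with and without dystrophin. They were taken as every probe set annotated to a single gene whose symbol begins with Mrpl or Mrps and a digit. This gave 127 of the 22690 probe sets on the array, for 74 of the 12393 genes on it, 47 named Mrpl and 27 named Mrps. Of these probe sets 112 passed the filter of a mean scaled signal of at least 100 and were tested, and 15 were too dim. All 74 genes were tested through at least 1 probe set, and where a gene is counted once it stands for its brightest one. Mrps18a and Mrps30 are now placed in the large subunit, so that 49 genes are counted as large subunit and 25 as small subunit members. Mrps36, counted with the small subunit by its symbol, is now regarded as a component of the oxoglutarate dehydrogenase complex.

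Total RNA from cardiac muscle was hybridised to 12 Affymetrix MOE430A arrays. Mice were control or mdx, aged 8 weeks or 10.5 months, which makes 4 groups of 3 arrays. The mdx mouse carries a point mutation in Dmd that stops production of full-length dystrophin, the protein lost in Duchenne muscular dystrophy, while shorter products of the gene can still be made. Controls were named as wild type, and no treatment, transgene or second allele was named for either genotype. Sex, strain and whether each array held RNA of 1 animal or of a pool are not given in the sources used here, so p-values measure the spread between these arrays, which may be partly technical.

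The mitochondrial ribosome translates the few messages encoded by mitochondrial DNA, all of which specify subunits of the oxidative phosphorylation complexes. Its RNA comes from mitochondrial DNA, but every one of its proteins is encoded in the nucleus, made in the cytosol and imported. Some have a counterpart in bacteria, others arose with the mitochondrion, and inherited defects of several cause cardiomyopathy, the heart being rich in mitochondria.

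Dmd, the mutated gene, fell in mdx hearts at both ages. Its scaled signal was 607, 780 and 623 on the control arrays and 264, 279 and 159 on the mdx arrays at 8 weeks (log2 difference -1.42 ± 0.20, standard error of the limma fit, adjusted p = 0.00596), with no overlap. At 10.5 months it was 839, 839 and 796 against 264, 286 and 195 (-1.63 ± 0.20, adjusted p = 0.012), again apart. The 8 ventricular myocyte markers were all above the filter, while 8 of 9 markers of fast skeletal and extraocular muscle lay below it, although extraocular muscle appears as a keyword of every sample. A wide signal range (99th percentile of the deposited signal above 35000) set 4 arrays apart, namely control replicate 2 and mdx replicates 1 and 2 at 8 weeks and mdx replicate 3 at 10.5 months. The last of these also had the highest 3′ to 5′ signal ratio of beta-actin, a measure of RNA integrity (1.44, against 1.05 to 1.29 on the other arrays). Its ratio of Gapdh, a second such measure, was 0.80, within the range of the others (0.75 to 0.97). Some results are therefore also given without the 4 arrays of wide signal range, and each such value is named as such. Leaving out all 4 keeps 1 mdx array at 8 weeks, which the fit then assumes to vary like the other groups.

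Promoters are shown for 4 members whose signal rose with age in mdx hearts (Mrpl34, Mrpl3, Mrpl32 and Mrps21) and for Mrpl12, which had the largest log2 difference between mdx and control at 10.5 months. The RefSeq promoter table (GRCm38.p6, 250 bases before to 50 after the gene's start) held 65 of the 74 member genes. The sequences below are the 150 bases just before the start on the gene's strand, 5′ to 3′, with a match to 1 of 4 motifs in capitals. The motif is CCGGAAG, bound by ETS factors such as GABPA, in Mrpl34 and Mrpl3. In the others it is the NRF1 motif, which reads GCGCA, any base and GCGC on 1 of the strands. Both factors are known regulators of nuclear genes for mitochondrial proteins.
Mrpl34, chr8:71464776-71464925, + strand: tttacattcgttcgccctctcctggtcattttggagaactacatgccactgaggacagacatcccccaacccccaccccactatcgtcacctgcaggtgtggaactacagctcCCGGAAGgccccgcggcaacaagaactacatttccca
Mrpl3, chr9:105053118-105053267, + strand: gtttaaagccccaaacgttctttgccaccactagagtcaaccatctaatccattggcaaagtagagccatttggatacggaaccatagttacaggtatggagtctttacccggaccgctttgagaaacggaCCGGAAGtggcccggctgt
Mrpl32, chr13:14613038-14613187, - strand: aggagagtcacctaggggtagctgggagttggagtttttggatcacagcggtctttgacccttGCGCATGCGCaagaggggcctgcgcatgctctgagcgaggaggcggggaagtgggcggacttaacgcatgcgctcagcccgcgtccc
Mrps21, chr3:95871515-95871664, - strand: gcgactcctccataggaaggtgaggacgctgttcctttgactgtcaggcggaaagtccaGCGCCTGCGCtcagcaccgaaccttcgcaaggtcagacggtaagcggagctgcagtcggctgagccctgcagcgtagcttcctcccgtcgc
Mrpl12, chr11:120484487-120484636, + strand: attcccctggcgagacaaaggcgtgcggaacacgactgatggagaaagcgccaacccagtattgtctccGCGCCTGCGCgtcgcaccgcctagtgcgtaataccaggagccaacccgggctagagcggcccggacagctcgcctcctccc

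The first letter of the ETS motif lay 37 bases before the start of Mrpl34 and 19 before that of Mrpl3. The NRF1 motif lay 87, 91 and 81 bases before the starts of Mrpl32, Mrps21 and Mrpl12. Searched on both strands of the full 300-base windows, CCGGAAG was found in 24 of the 65 member genes (36.9%, against 9.93% of all 27025 genes in the table). The NRF1 motif was found in 12 (18.5% against 5.19%), and AAGATGGC, bound by YY1, in 11 (16.9% against 3.19%). The E-box CACGTG, bound by MYC among others, was found in 5 (7.69% against 8.09%). At least 1 of the 4 motifs stood in the windows of 42 member genes. Such a match is a description of the letters and not evidence of binding. Other members that rose with age in mdx hearts differed. Mrps16 held the ETS motif 74 bases before its start. Mrps33 and Mrps18b held none of the motifs in the same 150 bases but had the ETS motif in the 50 bases after the start. Mrpl55, Mrpl16 and Mrpl40 held none in the full window.

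Whether loss of dystrophin changed these genes in the young heart was asked at 8 weeks. Most mitochondrial ribosomal protein genes read lower in mdx than in control hearts, by a small amount, and none passed the test. The log2 difference was below 0 for 57 of 74 genes (51.7% of all 8852 genes tested), with a median of -0.20 against -0.01 over all genes. The limma fit called 0 of 112 member probe sets at an adjusted p below 0.05 (Benjamini-Hochberg, background 2.3% of all probe sets tested), and at an unadjusted p below 0.05 it gave 3 higher and 16 lower (9.05% and 8.77% of all). All 3 mdx arrays lay below all 3 control arrays for 25 genes (background 10.5%), and the reverse held for 0 genes (background 9.53%).

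**Figure D1:**
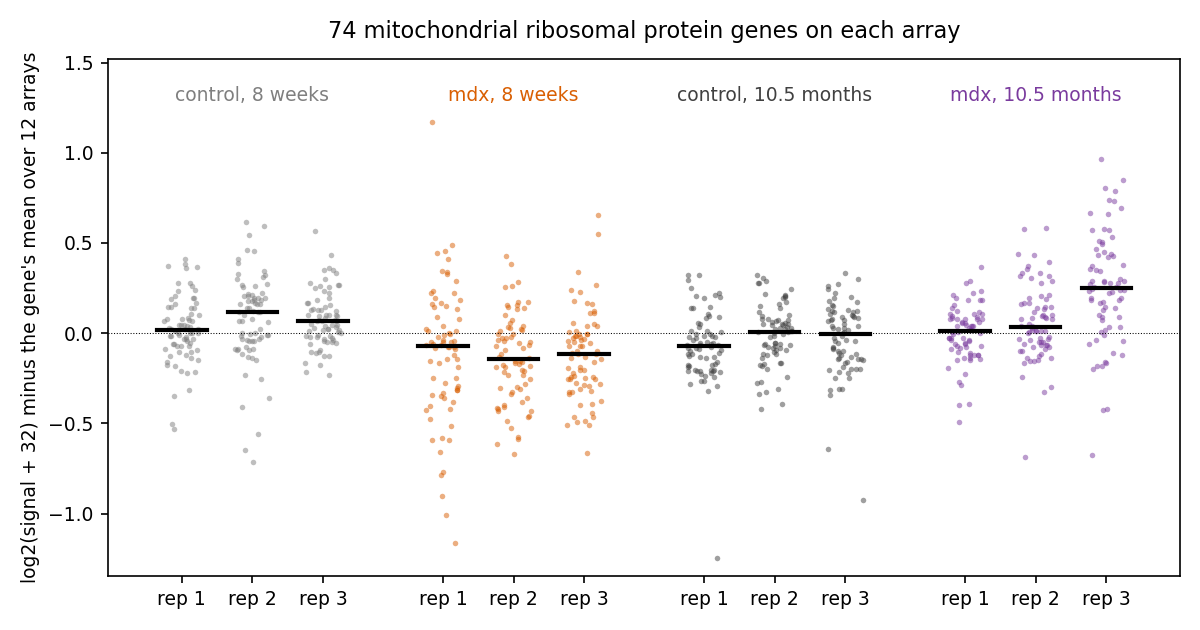
Each point is 1 of 74 genes on 1 of 12 arrays, as log2(signal + 32) minus the gene's mean over the 12 arrays, and the bar is the median of the array. The medians of the 3 mdx arrays at 8 weeks lie between -0.14 and -0.07 and those of their controls between 0.02 and 0.12, while mdx replicate 3 at 10.5 months stands highest at 0.25.

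The medians per array showed the same at 8 weeks. Relative to each gene's mean over the 12 arrays, the control medians were 0.02, 0.12 and 0.06 and the mdx medians were -0.07, -0.14 and -0.12 on the log2 scale, in the order of replicates 1 to 3. The groups did not overlap. The difference was about as large without the 4 arrays of wide signal range (56 of 74 genes below 0, median -0.21) and with signal range as a term in the fit (57 genes, median -0.22). Leaving out 1 array at a time left 51 to 63 genes below 0. Quantile normalization, which forces all arrays to 1 distribution, gave 53 genes and a median of -0.12.

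Small subunit genes leaned further down than large subunit genes at 8 weeks, although the difference between the subunits was not tested. Of 25 small subunit genes 22 were below 0, with a median log2 difference of -0.27. In 13 of them (52%, background 10.5% of all genes) the mdx arrays all lay below the controls. Of 49 large subunit genes 35 were below 0, with a median of -0.12, and 12 (24.5%, same background) had mdx arrays all below the controls. Origin, as listed here, made little difference to the median. It was -0.20 both for the 44 genes listed as having a bacterial counterpart and for the 29 others, Mrps36 left aside. The list counted Mrpl55 with the former, although its protein is regarded as specific to mitochondria. Of the Mrps18 genes it held only Mrps18c, so that Mrps18a and Mrps18b stand among the others.

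The member with the smallest p at 8 weeks was Mrpl34, which encodes the counterpart of a small, basic bacterial protein that is buried in the RNA of the large subunit. Its signal was 1717, 1755 and 1564 in controls against 1062, 1296 and 1083 in mdx hearts (1679 ± 101 and 1147 ± 130, mean ± SD, n = 3). Each mdx array lay below each control array. The log2 difference was -0.54 ± 0.14, a 0.687-fold level, at an adjusted p of 0.0672. It passed with signal range as a term and with a spread that follows intensity, and over 23 alternatives the adjusted p ran from 0.0416 to 0.23.

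Other large subunit members with small p included Mrpl3, the counterpart of a bacterial protein near the site of peptide bond formation and linked to cardiomyopathy in people. Its signal was 1325, 1639 and 1698 in controls against 992, 1090 and 1264 in mdx hearts, again without overlap (-0.47 ± 0.15, adjusted p = 0.125). Its other tested probe set differed by only -0.07 ± 0.16. Mrpl55 read 2525, 2670 and 2579 without the mutation against 1464, 1791 and 2044 with it (-0.56 ± 0.18, adjusted p = 0.126). For Mrpl55 the lowest control array stood well above the highest mdx array. Mrpl43, a protein without bacterial counterpart, read 914, 890 and 1142 in controls against 691, 659 and 768 in mdx hearts (-0.45 ± 0.14, adjusted p = 0.127), also without overlap.

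In the small subunit, Mrps11, whose bacterial counterpart lies on the platform of the small subunit, had the lowest value of all members. It read 861, 844 and 818 in controls against 336, 459 and 741 in mdx hearts (-0.75 ± 0.23, adjusted p = 0.121). The controls lay close together while the mdx arrays spread widely, mdx replicate 3 coming near the controls. Without that array its difference was -1.04 and passed the test (adjusted p = 0.0282, range over 23 alternatives 0.0282 to 0.653). Mrps25, a protein without bacterial counterpart, read 747, 749 and 923 in controls against 503, 440 and 655 in mdx hearts (-0.58 ± 0.18, adjusted p = 0.119). Its second tested probe set pointed the same way (-0.39 ± 0.19).

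The 3 probe sets that were higher at an unadjusted p below 0.05 were all second probe sets, of Mrpl33, Mrpl13 and Mrps9, named here after their values were seen. That of Mrpl33 read 123, 114 and 143 in controls against 265, 196 and 204 in mdx hearts (0.67 ± 0.19, adjusted p = 0.0902). That of Mrpl13, which may match other transcripts, read 248, 200 and 233 against 330, 322 and 458 (0.62 ± 0.19, adjusted p = 0.108). In both the groups did not overlap, the signals were dim, and among the other member probe sets only that of Mrpl34 had a smaller p. That of Mrps9 differed by 0.28 (adjusted p = 0.273). By the brightest probe set of each gene, the members that read higher had larger p than these. Mrpl52 had the largest such value, at 1210, 1894 and 1582 in controls against 3229, 1524 and 2253 in mdx hearts (0.53 ± 0.36, adjusted p = 0.474). The groups overlapped, and its other tested probe sets gave -0.30 and -0.11. Mrpl1, Mrps36, Mrpl9, Mrpl28 and Mrpl39 followed with log2 differences of 0.24, 0.23, 0.18, 0.16 and 0.15. Of these, second probe sets of Mrpl9, Mrpl28 and Mrpl39 lay below 0 (-0.23, -0.31 and -0.28).

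**Figure D2:**
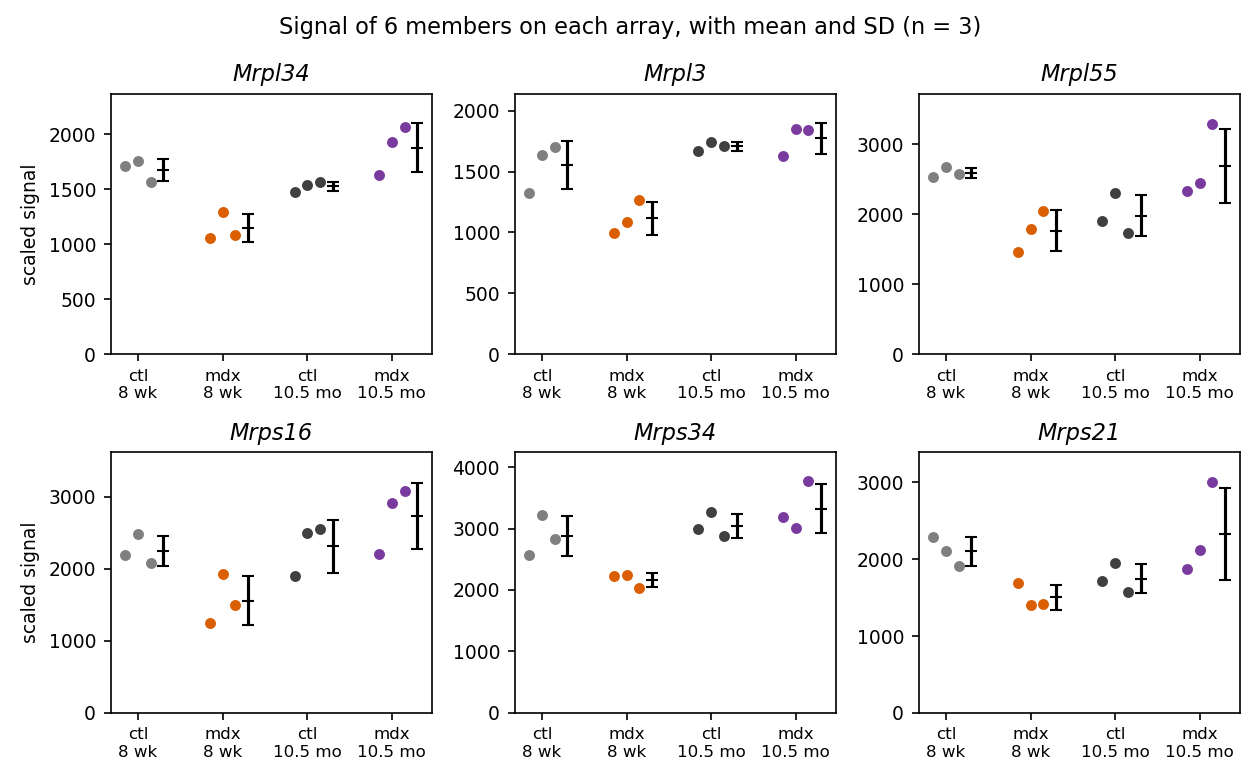
Scaled signal of Mrpl34, Mrpl3, Mrpl55, Mrps16, Mrps34 and Mrps21 on each array (points, ctl for control, wk for weeks and mo for months), with the mean and SD of 3 arrays as a bar beside each group. In each panel the 3 mdx arrays at 8 weeks lie below the 3 controls of that age, while at 10.5 months they overlap with the controls or lie above them. The genes were picked from the 11 called for age in mdx hearts, a comparison that uses the same mdx arrays of 8 weeks. Mdx arrays lay all below the controls at 8 weeks in 10 of those 11 genes, and in 25 of all 74.

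At 10.5 months, when dystrophin had been absent for longer, the lean was the other way and small again, and it was smaller without 1 array. The log2 difference between mdx and control was above 0 for 62 of 74 genes (46.1% of all genes), with a median of 0.14 against -0.02 over all genes. No member probe set was called (0 of 112, background 0.0469%), and at an unadjusted p below 0.05 there were 6 higher and 0 lower (2.68% and 4.69% of all). All mdx arrays lay above all controls for 13 genes (background 7.93%) and below them for Mrpl44 and Mrps2 (2 genes, background 10.8%). The medians per array were -0.07, 0.01 and -0.01 in controls against 0.01, 0.03 and 0.25 in mdx hearts. Without mdx replicate 3, which has the wide signal range and the highest actin but not Gapdh ratio, 47 of 74 genes were above 0. Of these 45 were among the 62, and the median was 0.054. With all arrays and signal range as a term in the fit, 58 genes were above 0 with a median of 0.12, and under quantile normalization 63 genes with 0.13. The part of RNA integrity in the result was not tested.

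The smallest p at this age belonged to a second probe set of Mrpl11 (0.68 ± 0.23, adjusted p = 0.599), named after its values were seen, and its groups overlapped. Genes are described by their brightest probe set in what follows. Mrpl12, which forms the flexible stalk that recruits translation factors to the large subunit, had the largest value at this age. It read 2062, 2377 and 1215 in controls against 2663, 2466 and 4594 in mdx hearts (0.77 ± 0.30, adjusted p = 0.666). The groups did not overlap, but the value of mdx replicate 3 was far above the other mdx values. Mrps33, a small subunit protein without bacterial counterpart, read 1540, 1491 and 1398 against 1557, 1942 and 2712 (0.44 ± 0.19, adjusted p = 0.666), with the same array highest. Mrpl55 read 1902, 2303 and 1732 against 2327, 2443 and 3294 (0.43 ± 0.18, adjusted p = 0.666). Here too mdx replicate 3 was the highest of all. Without that array the log2 differences were 0.49 for Mrpl12, 0.23 for Mrps33 and 0.275 for Mrpl55.

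Mrps21, Mrpl13 and Mrpl34 followed at 10.5 months with log2 differences of 0.39, 0.31 and 0.29 and adjusted p between 0.674 and 0.701. Their differences were 0.19, 0.17 and 0.215 without mdx replicate 3. For Mrpl34 the controls read 1479, 1540 and 1564 and the mdx hearts 1635, 1934 and 2070, so that the groups did not overlap. On the other side Mrpl28, Mrpl37, Mrps2, Mrpl49, Mrpl1 and Mrpl44 had values from -0.21 to -0.10. The next brightest probe sets of Mrpl28, Mrpl49 and Mrpl1 lay above 0 (0.06, 0.01 and 0.14). Those of Mrps2 and Mrpl44 lay below it (-0.04 and -0.35). Mrpl44 read 2328, 2281 and 2289 in controls against 2111, 2114 and 2206 in mdx hearts, a small gap between tight groups (-0.10 ± 0.13, adjusted p = 0.89).

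**Figure D3:**
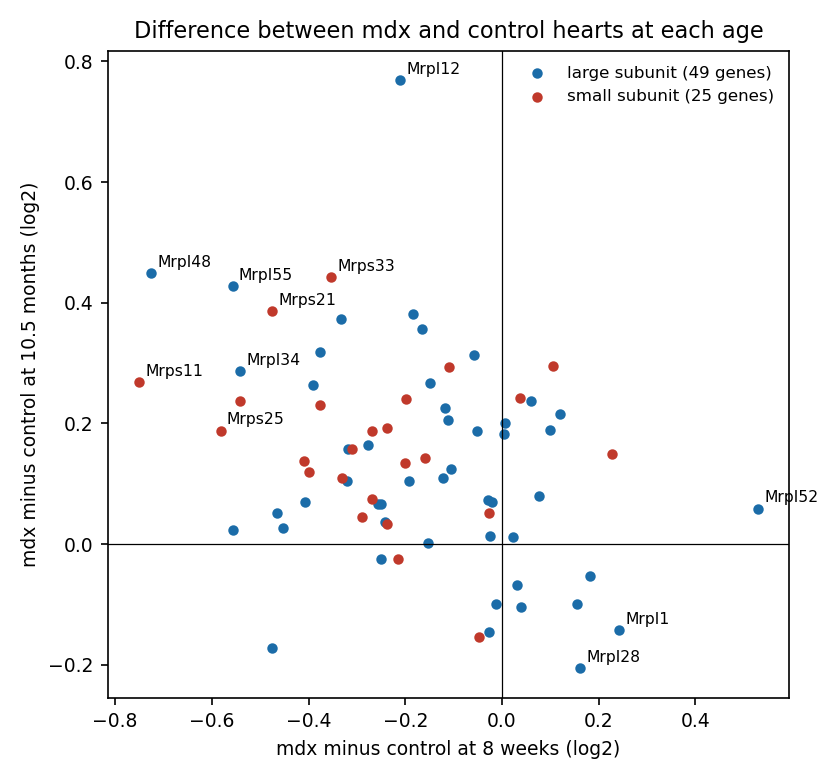
Each point is 1 gene, with its log2 difference between mdx and control hearts at 8 weeks (horizontal axis) and at 10.5 months (vertical axis), blue for 49 large subunit and red for 25 small subunit members. The upper left part, below 0 at 8 weeks and above 0 at 10.5 months, holds 51 of 74 genes.

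The comparisons at the 2 ages share no array, and 51 genes were below 0 at 8 weeks and above 0 at 10.5 months, while 6 showed the reverse. Over the 74 genes the correlation of both differences was -0.344, against 0.046 over all 8852 genes (a description, since genes share arrays and are not independent). The test of the difference between the ages, the interaction of genotype and age, called 0 of 112 member probe sets (background 0.154%). At an unadjusted p below 0.05 it gave 20 higher and 2 lower probe sets (5.11% and 7.03% of all). Mrpl34 came nearest, with 0.83 ± 0.20 (adjusted p = 0.144), then Mrpl55 with 0.99 ± 0.25 (0.155). The dim second probe set of Mrpl33 came next and ran the other way (-0.98 ± 0.27, adjusted p = 0.176), before Mrps21 with 0.86 ± 0.26 (0.2). The other lower probe set was a dim one of Mrps9 (-0.51, adjusted p = 0.284). Among brightest probe sets the smallest p below 0 were those of Mrpl28, Mrpl1 and Mrpl9, at -0.37, -0.38 and -0.23 (adjusted p from 0.51 to 0.717).

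Averaged over both ages, mdx and control hearts differed little in these genes. The median log2 difference was -0.03 over the 74 genes and 0 of 112 probe sets were called (background 0.201%), with 2 higher and 1 lower at an unadjusted p below 0.05 (5.99% and 7.65% of all). The 2 higher ones were second probe sets of Mrpl13 (0.42, adjusted p = 0.209) and Mrps24 (0.35, adjusted p = 0.341), the former with the smallest p of all. By the brightest probe set, Mrpl37 had the smallest p below 0 (-0.32 ± 0.14, adjusted p = 0.347), before Mrpl43 and Mrpl3 (both -0.21). Above 0 the smallest p were those of Mrps24, Mrps36 and Mrpl41, with values from 0.17 to 0.20, while the largest values were 0.29 for Mrpl52 and 0.28 for Mrpl12.

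Age in control hearts was compared to see what these genes do without disease. A slight lean downwards was seen, with 46 of 74 genes below 0 (49.1% of all genes) and a median log2 difference of -0.09 between 10.5 months and 8 weeks. No probe set was called (0 of 112, background 0.147%), with 3 higher and 6 lower at an unadjusted p below 0.05 (7.3% and 4.88% of all). The arrays of both ages did not overlap for 5 genes that read higher with age (background 12.3%) and 21 that read lower (background 11.3%). The smallest p belonged to a dim second probe set of Mrps9 (-0.68 ± 0.20, adjusted p = 0.218), against 0.39 for the brightest. Among brightest probe sets Mrpl28 had the smallest p, at 1785, 2003 and 1913 at 8 weeks and 2740, 2799 and 2441 at 10.5 months (0.48 ± 0.15, adjusted p = 0.228). The groups stood clearly apart on this probe set, and 1 further probe set of Mrpl28 gave 0.46 and another -0.09. Mrpl44, Mrps9, Mrpl16, Mrps2 and Mrpl32 were the next above 0, from 0.21 to 0.39. Below 0 by p were Mrpl21 (-0.44 ± 0.16, adjusted p = 0.309), Mrps23, Mrpl42, Mrpl55, Mrps7 and Mrps30.

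Of the 6 comparisons, age in mdx hearts was the only one in which members passed the test, and more rose than fell. Of 112 member probe sets 13 rose and 2 fell between 8 weeks and 10.5 months (background 5.45% higher and 5.97% lower of all tested, 11.4% in either direction). By the brightest probe set, 11 of 74 genes rose (background 5.68%) and 0 fell (background 5.59%), the other called probe sets being second ones of Mrps23, Mrpl52, Mrpl33 and Mrps9. The difference was above 0 for 56 of 74 genes (49.2% of all genes), with a median of 0.23 against -0.01. The arrays of both ages did not overlap for 23 genes that read higher with age (background 15.5%) and for Mrpl52 alone among those that read lower (1 gene, background 15.6%).

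Large subunit genes that rose with age in mdx hearts were Mrpl34, Mrpl3, Mrpl32, Mrpl16, Mrpl40 and Mrpl55. Mrpl34 read 1062, 1296 and 1083 at 8 weeks and 1635, 1934 and 2070 at 10.5 months (0.70 ± 0.14, adjusted p = 0.0114). Every old array lay above every young one, and the same held for the next 3 genes. Mrpl3 read 992, 1090 and 1264, then 1626, 1853 and 1840 (0.66 ± 0.15, adjusted p = 0.0159). Mrpl32, whose protein must be trimmed by a mitochondrial protease before it joins the ribosome, read 772, 796 and 1125, then 1406, 1607 and 1969 (0.87 ± 0.22, adjusted p = 0.0242). Mrpl16 read 2301, 2064 and 2356, then 3298, 3033 and 3206 (0.50 ± 0.14, adjusted p = 0.033). The last 2, Mrpl40 and Mrpl55, rose by 0.60 and 0.59 (adjusted p = 0.0351 and 0.0479).

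Small subunit genes that rose were Mrps34, Mrps16, Mrps33, Mrps18b and Mrps21. Mrps34, a protein without bacterial counterpart whose loss is known to destabilise the small subunit, read 2221, 2237 and 2030 at 8 weeks and 3192, 3009 and 3773 at 10.5 months (0.61 ± 0.14, adjusted p = 0.0204). Mrps16, whose bacterial counterpart helps the small subunit to assemble, read 1247, 1923 and 1502, then 2212, 2914 and 3078 (0.81 ± 0.19, adjusted p = 0.0206). In both genes the ages did not overlap. Mrps33 rose by 0.69 (adjusted p = 0.0351), Mrps18b by 0.47 (0.0428) and Mrps21 by 0.60 (0.0496).

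Without disease the genes that rose, Mrpl40 left aside, had smaller or negative differences with age, in control arrays that the mdx comparison does not share. They were picked by their rise in mdx hearts, so smaller values on other arrays were likely from that choice alone. The log2 differences in controls were -0.13 for Mrpl34, 0.14 for Mrpl3, 0.22 for Mrpl32, 0.27 for Mrpl16, 0.09 for Mrps34 and 0.03 for Mrps16. For Mrpl55, Mrps21, Mrps33 and Mrps18b they were -0.39, -0.26, -0.10 and -0.14. None of these differences between genotypes passed the interaction test. Over all members 32 genes were below 0 with age in controls and above 0 in mdx hearts, 24 were above 0 in both and 14 below 0 in both.

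The rise with age and the lower values of mdx hearts at 8 weeks rest on the same 3 mdx arrays of 8 weeks and are not independent. Side by side, the difference from control at 8 weeks and the difference with age in mdx hearts were -0.54 and 0.70 for Mrpl34, -0.47 and 0.66 for Mrpl3, -0.54 and 0.81 for Mrps16 and -0.40 and 0.61 for Mrps34. The corresponding differences from control at 10.5 months were 0.29, 0.05, 0.24 and 0.12.

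**Figure D4:**
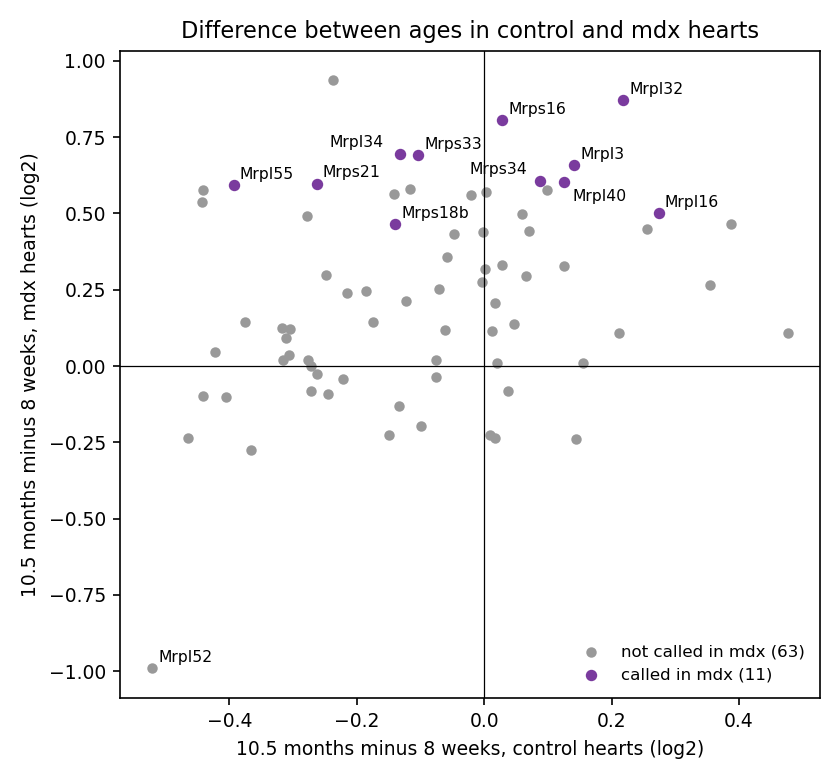
Each point is 1 gene, with its log2 difference between 10.5 months and 8 weeks in control hearts (horizontal axis) and in mdx hearts (vertical axis), purple for the 11 genes called in mdx hearts and grey for the other 63. The called genes all lie high in the plot and spread to both sides of 0 in controls.

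The count of called members with age in mdx hearts depended strongly on which arrays were used, as did the count over all probe sets tested. For members it was 2 without mdx replicate 2 at 10.5 months and 2 without mdx replicate 3 of that age. It was 5 without mdx replicate 1 at 8 weeks and 6 without mdx replicate 2 of that age. Over all 14932 probe sets tested the counts in the same order were 598, 858, 1189 and 1247, against 1706 with all arrays. The member count was 9 without control replicate 1 at 8 weeks and 7 without either control replicate 1 or control replicate 2 at 10.5 months. These arrays enter only through the shared spread, and the counts over all probe sets were 1507, 1315 and 1318. Fitted on the 6 mdx arrays alone, 0 members and 565 of all probe sets were called. Without the 4 arrays of wide signal range the median over the 74 genes was 0.13, against 0.23 with all arrays. Mrpl34 was called in 21 of 23 alternatives, Mrps34 in 20, Mrpl3 in 19 and Mrps16 in 18, but Mrpl55 in 7 and Mrps21 in 6. The direction of all 11 genes held in every one of these alternatives.

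Genes with several probe sets did not always give 1 answer. In 28 genes 2 or more probe sets were tested, and the 2 brightest had the same sign in 14 genes at 8 weeks, 19 at 10.5 months, 15 for age in controls and 16 for age in mdx hearts. The correlation over these genes between both probe sets ran from -0.232 for age in mdx hearts to 0.438 for mdx at 10.5 months. For Mrpl52 a second probe set, marked as able to match other transcripts, rose with age in mdx hearts by 0.61 (adjusted p = 0.0446) while the brightest gave -0.99 ± 0.36 (adjusted p = 0.0885). A dim probe set of Mrps9 fell by 0.51 (adjusted p = 0.0239) while the brightest gave 0.46, and a dim one of Mrpl33 fell by 0.67 (adjusted p = 0.04) while the brightest gave 0.45. A second probe set of Mrps23 rose by 0.52 (adjusted p = 0.0395), against 0.12 for the brightest.

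Members linked to cardiomyopathy in people, Mrpl3, Mrpl44, Mrps22 and Mrps14, had 8-week differences of -0.47, -0.01, -0.21 and -0.27 between mdx and control, with a median of -0.24. At 10.5 months their values were 0.05, -0.10, -0.03 and 0.19. These are values of the brightest probe sets, and others of the same genes differed. The next brightest of Mrpl3, Mrpl44 and Mrps14 gave -0.07, 0.34 and 0.01 at 8 weeks. At 10.5 months they gave -0.07, -0.35 and -0.002. Of the 3 tested probe sets of Mrpl44, 1 was above 0 and 2 were below 0 at each age. None was called in either comparison. Mrps14 read 3242, 4027 and 3401 in controls against 2975, 3136 and 2709 in mdx hearts at 8 weeks, without overlap. Mrps22 read 802, 926 and 836 against 837, 695 and 669, where mdx replicate 1 lay within the control range.

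None of the brightest and dimmest members was called in either mdx comparison. Mrpl42, Mrpl51 and Mrpl39 had the highest mean scaled signals (8882, 4502 and 3404.5), and their 8-week differences were 0.10, 0.01 and 0.15. Mrpl1, Mrps5 and Mrpl19 had the lowest among brightest probe sets (332, 404 and 528), with 0.24, -0.27 and -0.41. Brightness depends on the probes as well as on the RNA, so these signals do not rank the genes. Among all probe sets with a mean signal from 300 to 1000 the 8-week median was -0.06, against -0.22 for the 40 members in that range. From 1000 to 3000 it was -0.10, against -0.19 for 55 members, and above 3000 it was 0.13, against 0.02 for 6 members. The dimmest range, from 100 to 300, went the other way, with 0.055 against 0.18 for 11 members. At 10.5 months the medians in the same order of ranges were -0.06 against 0.07, -0.03 against 0.13, 0.12 against 0.185 and -0.03 against 0.04.

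Genes that work with the mitochondrial ribosome were followed in lists, and none of their genes was called in either mdx comparison. Of the 4 measured subunits with other names, Dap3, a small subunit protein that binds GTP, had the smallest p at 8 weeks (-0.44 ± 0.14, adjusted p = 0.136), and the list's median was -0.18. The 6 measured translation factors had a median of -0.15 at 8 weeks and -0.12 at 10.5 months, with Gfm2, which acts in ribosome recycling, at -0.56 ± 0.17 (adjusted p = 0.103) and Mrrf, the recycling factor, at -0.43 at 8 weeks. The 13 genes that provide charged mitochondrial tRNAs, which are synthetases and the amidotransferase subunits Qrsl1, Gatb and Gatc, had medians of 0.03 and 0.01. The 20 assembly and rRNA modification genes had medians of -0.06 and -0.02.

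Mitochondrial DNA replication, transcription and RNA genes (14 measured) had medians of -0.15 at 8 weeks and 0.04 at 10.5 months. Supv3l1, the helicase that helps to degrade mitochondrial RNA, read 1073, 1061 and 1062 in controls against 512, 734 and 736 in mdx hearts at 8 weeks (-0.68 ± 0.17, adjusted p = 0.0585), well apart from the tight controls. With age in mdx hearts Ssbp1, which coats single-stranded mitochondrial DNA, rose by 1.02 and Tefm, the elongation factor of mitochondrial transcription, by 0.86 (both adjusted p = 0.0114). Tefm read 268, 251 and 315 at 8 weeks and 434, 482 and 698 at 10.5 months. Fastkd2, which binds mitochondrial ribosomal RNA, rose by 0.90 (adjusted p = 0.0149) and was the only assembly gene called in that comparison.

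Nuclear regulators of mitochondrial genes (9 measured) had medians of 0.04 at 8 weeks and -0.23 at 10.5 months, when 9 of 9 were below 0 and none was called. Without mdx replicate 3 at 10.5 months the median was -0.074, with 8 of 9 below 0, an alternative chosen after seeing the data. Gabpa, the ETS factor named above, read 507, 584 and 542 in controls against 533, 526 and 545 in mdx hearts at 8 weeks, with no visible difference. At 10.5 months it read 767, 820 and 695 against 621, 656 and 477 (-0.37 ± 0.15, adjusted p = 0.666), without overlap, and the difference was -0.24 without mdx replicate 3.

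**Figure D5:**
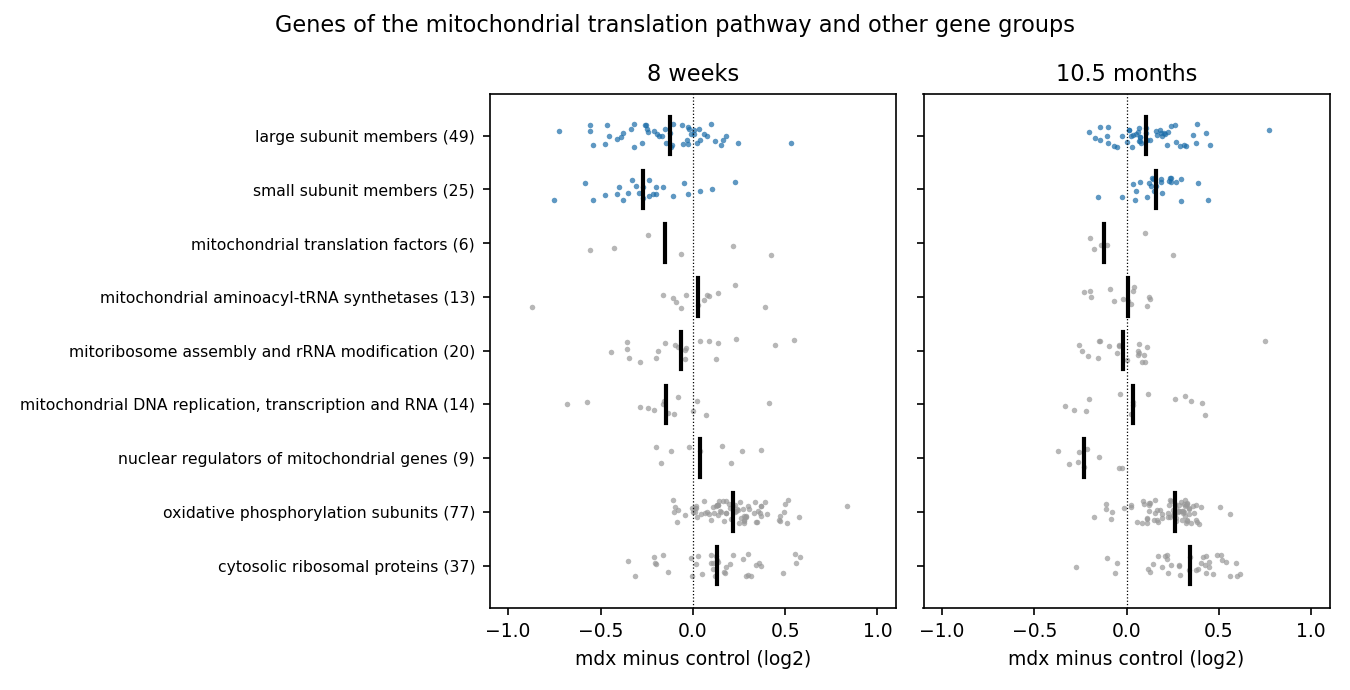
Log2 difference between mdx and control hearts at 8 weeks (left) and 10.5 months (right), 1 point a gene and a bar at the median, for the members by subunit (blue) and for other gene groups (grey), with the number of genes in brackets. At 8 weeks the medians of large and small subunit members lie at -0.12 and -0.27, while those of oxidative phosphorylation subunits and cytosolic ribosomal proteins lie at 0.22 and 0.13.

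The products that mitochondrial ribosomes help to build, the oxidative phosphorylation complexes, and the ribosomes of the cytosol read differently at 8 weeks, a difference between lists that was not tested. The 77 nuclear genes of oxidative phosphorylation had a median of 0.22, and the 37 of cytosolic ribosomal proteins 0.13. These are bright genes, and their medians depended on the handling of the arrays of wide signal range. Under quantile normalization the medians were -0.05 and -0.05, and without the 4 wide arrays -0.21 and -0.15, against -0.12 and -0.21 for the members. At 10.5 months they were 0.26 and 0.34, and 0.06 and 0.16 under quantile normalization, against 0.14 and 0.13 for the members. Without the 4 wide arrays they were 0.12 and 0.18 at that age, against 0.054 for the members.

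In whole heart tissue fewer cells of a type and less RNA per cell cannot be told apart. The level of 8 fibroblast markers, as their mean log2 signal, was 10.38 to 10.86 in controls against 10.77 to 11.10 in mdx hearts at 8 weeks, and 10.69 to 10.85 against 11.04 to 11.46 at 10.5 months, with all 8 markers above the filter. The level of 8 ventricular myocyte markers was 14.28 to 15.28 in controls against 14.12 to 15.79 in mdx hearts at 8 weeks, and 14.22 to 14.50 against 14.46 to 14.81 at 10.5 months. Their highest levels at 8 weeks were on arrays of wide signal range. The median log2 difference of these markers at 8 weeks was 0.34 with all arrays and -0.24 without the 4 wide ones. Of 10 macrophage and monocyte markers the level was 9.48 to 9.80 against 9.52 to 9.88, and 9.37 to 9.78 against 9.55 to 10.04. Atrial myocyte markers (8 genes) stood at 8.64 to 8.88 against 8.98 to 9.52 at 8 weeks, without overlap, and at 8.09 to 10.43 against 8.17 to 8.96 at 10.5 months. Their median log2 difference between mdx and control was 0.54 at 8 weeks and -0.75 at 10.5 months, when 4 of 8 were lower at an unadjusted p below 0.05 and 0 were called. Of 4 tested smooth muscle markers 2 fell at 8 weeks, Acta2, smooth muscle actin (-0.80, adjusted p = 0.0184), and Smtn, smoothelin (-0.69, adjusted p = 0.0467). The mean log2 signal of the 5 smooth muscle markers on the array was 8.96 to 9.47 against 8.80 to 9.09 at 8 weeks, and 8.76 to 8.96 against 8.70 to 8.92 at 10.5 months. Endothelial markers were below 0 in 7 of 8 genes at 8 weeks and 6 of 8 at 10.5 months, with levels of 9.83 to 10.05 against 9.64 to 9.91 and 9.67 to 9.84 against 9.41 to 9.70. The part of cell makeup in the values of the members was not tested.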

How the data were processed

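Per the labels, RNA was labelled and hybridised by a standard Affymetrix protocol. The deposited values are intensity per probe set and array on a linear scale, which the authors had scaled to a common level, since the trimmed mean of the 12 arrays (without the highest and lowest 2%) ran from 1500.6 to 1500.9. The software that combined probes is not given in the sources used here, and the number of arrays limits the precision. Groups and replicate numbers came from the sample titles.

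Arrays were brought to a trimmed mean of 500 and values taken as log2(signal + 32), which understates the change of dim genes. After removal of 64 control probe sets, tests covered the 14932 whose scaled signal averaged at least 100. The model had 1 mean for each group over all 12 arrays and was fitted with limma 3.58.1 in R 4.3.3 (functions lmFit and eBayes, 8 residual and 5.2 prior degrees of freedom). Benjamini-Hochberg adjustment ran over everything tested, and a call needed an adjusted p below 0.05. The script was first tested on simulated data. Genes were named through the platform annotation, promoters came from RefSeq GRCm38.p6, and errors are standard errors of the fit unless named as SD.

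The members, gene lists and alternatives were chosen with earlier results of these data known, so lists are described by counts and medians with no test. Named for each comparison were every called member and the 6 with the smallest p in each direction (3 for the interaction and the mean), the 3 brightest and 3 dimmest, the members linked to cardiomyopathy, named members whose tested probe sets differed in sign, and from other lists every called gene and the gene with the smallest p. Same-numbered arrays of different groups did not deviate together (correlation -0.129 to 0.135 over 18 pairs), so the replicate number was not used as a block.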

Additional observations from a re-analysis of the deposited data

How the results depend on the processing

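The 3 arrays of each group limit the precision of every value. The replicate block, tried as an alternative, gave 10 called members for age in mdx hearts against 15 while the counts of called members in the other comparisons remained 0. Over all probe sets tested it called 1529 against 1706 for age in mdx hearts and 176 against 343 at 8 weeks. It called 3 against 7 at 10.5 months and 10 against 23 for the interaction. For age in mdx hearts the count of called members was 9 under quantile normalization, 0 on the mdx arrays alone and 2 to 17 leaving out 1 array. Over all probe sets tested the corresponding counts were 1948, 565 and 598 to 1883. At 8 weeks 1 member was called in place of 0 with signal range as a term and with an intensity trend, and 0 to 1 leaving out 1 array. Over all 14932 probe sets tested the corresponding counts were 350, 333 and 42 to 308. Over member probe sets the median for age in mdx hearts was 0.18. It was 0.096 without the 4 arrays of wide signal range, an alternative chosen after seeing the data. At 10.5 months it was 0.12, against 0.044 without the wide arrays and 0.044 to 0.142 leaving out 1 array. At 8 weeks it was -0.15, against -0.087 under quantile normalization. The causes were not tested.

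Signs of some named log2 differences turned, none of them called but the dim probe set of Mrps9. Without the wide arrays the 8-week values were -0.168 for Mrpl39, -0.201 for Mrpl42, 0.082 for Mrpl44 and -0.149 for Mrpl51. Those at 10.5 months were 0.021 for Mrpl1, -0.081 for Mrpl19 and -0.025 for Mrps5. Mrpl32 gave -0.023 for age in controls, Mrpl39 0.155 for age in mdx hearts and Mrps24 -0.008 for the mean of both ages. Quantile normalization gave -0.131 for Mrpl42, 0.06 for Mrpl44 and -0.081 for Mrpl51 at 8 weeks and 0.016 for Mrps22 at 10.5 months. With signal range as a term Mrpl44 was 0.023 and Mrpl51 -0.093 at 8 weeks. Averaging the probe sets of each gene gave -0.052 for Mrpl28, -0.065 for Mrpl39, 0.105 for Mrpl44, -0.055 for Mrpl51, -0.023 for Mrpl9 and 0.051 for Mrps5 at 8 weeks. At 10.5 months it gave -0.008 for Mrpl3 and -0.067 for Mrpl51. It also gave 0.031 for the interaction of Mrpl28, and for Mrps9 0.061 with age in mdx hearts and -0.123 with age in controls. Leaving out 1 array, Mrpl42 ran from -0.018 to 0.217, Mrpl44 from -0.085 to 0.049 and Mrpl51 from -0.057 to 0.11 at 8 weeks. At 10.5 months Mrpl1 ran from -0.251 to 0.021, Mrpl19 from -0.081 to 0.202, Mrps22 from -0.088 to 0.072 and Mrps5 from -0.025 to 0.203. Age in controls for Mrpl32 ran from -0.023 to 0.387.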
